A study of Mus musculus with 16 samples.

Results

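Splenic B cells of mice fed acylated starch were compared with those of mice fed the same starch without the acyl groups, to find what acetylated and butyrylated starch have in common in their B cell RNA. The comparison took the mean of the HAMSA and HAMSB diets against the HAMS diet and used 12 of the 16 libraries of the series, chosen by their labelled diet: 4 HAMS, 4 HAMSA and 4 HAMSB. HAMS is high-amylose maize starch, HAMSA is the same starch carrying acetate, and HAMSB carries butyrate. The 4 remaining libraries come from mice on the NP diet, called Gordons or GD in other labels, whose make-up the labels do not give, and entered the model only as a further diet.

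All mice were of the NOD.LT strain and 15 weeks of age, and ate their diet freely for the last 5 weeks. NOD mice develop autoimmune diabetes spontaneously, and their B cells take part in the disease as antigen-presenting cells. B cells were obtained from spleen by magnetic depletion of other cells, poly(A) RNA was made into stranded libraries, and reads were counted per gene. The labels do not say which animals the libraries come from, so the p-values measure the spread between these libraries.

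Starch that escapes digestion in the small intestine is fermented by gut bacteria to short-chain fatty acids, and an esterified starch also releases its own acyl group in the colon. Acetate and butyrate act on cells through G protein-coupled receptors such as Ffar2 and Ffar3, enter metabolism as acetyl-CoA, and, in the case of butyrate, inhibit zinc-dependent histone deacetylases. Resting B cells hold down growth with quiescence factors and metabolic brakes, and a brief signal through the antigen receptor, cAMP or stress induces the immediate early genes within minutes.

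With the acylated starches, 110 of 15021 genes differed from HAMS (0.732%) by the quasi-likelihood test of edgeR after Benjamini-Hochberg adjustment. Of these, 85 were lower (0.566%) and 25 higher (0.166%). The genes that were lower held Sik1 and Crem of the cAMP response, the phosphatases Dusp1 and Dusp5, the growth brake Ddit4, the glucocorticoid-induced Tsc22d3, the chaperones Dnaja1, Hspd1 and Hspa8, and the surface antigens Plaur and Cd69. The genes that were higher held the receptors Slamf7, Slamf1 and Cd180, the lysosomal cholesterol sensor Gpr155, the repressors Bcor and Id3, and the signalling adaptor Swap70. The median change was -0.72 on the log2 scale among the genes called lower and 0.58 among those called higher, against -0.01 over all genes tested.

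The 8 acylated libraries lay wholly on one side of the 4 HAMS libraries in 113 genes (0.752%), in 58 above HAMS (0.386%) and in 55 below it (0.366%). Among the 110 called genes, 36 were separated in this way, 13 higher and 23 lower. One acylated library stood apart from the other 7: HAMSA 6 was the highest of the 8 in 75 of the 85 genes called lower, a count made after the values were seen. Among the HAMS libraries, HAMS 1 was the lowest of the 4 in 57 of those 85 genes.

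The number of genes called moved with the libraries in the fit. Leaving out 1 library at a time gave 199 genes without HAMSA 6, 154 without HAMS 1, 100 without HAMSB 5, 84 without HAMSA 3, 81 without HAMSB 2, 74 without HAMSB 6, 71 without HAMS 5, 63 without HAMSA 2, 62 without HAMSB 1, 57 without HAMSA 1, 31 without HAMS 4 and 21 without HAMS 6. With the NP libraries left out of the fit, 32 genes were called, and with the 8 acylated libraries treated as 1 group in those 12 libraries edgeR called 0 genes (1368 at an unadjusted p under 0.05), limma voom 3 and DESeq2 252. All 110 genes kept their direction in each of these edgeR fits, and 19 genes were called whichever single HAMS, HAMSA or HAMSB library was left out. No NP library was left out singly.

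**Figure D1:**
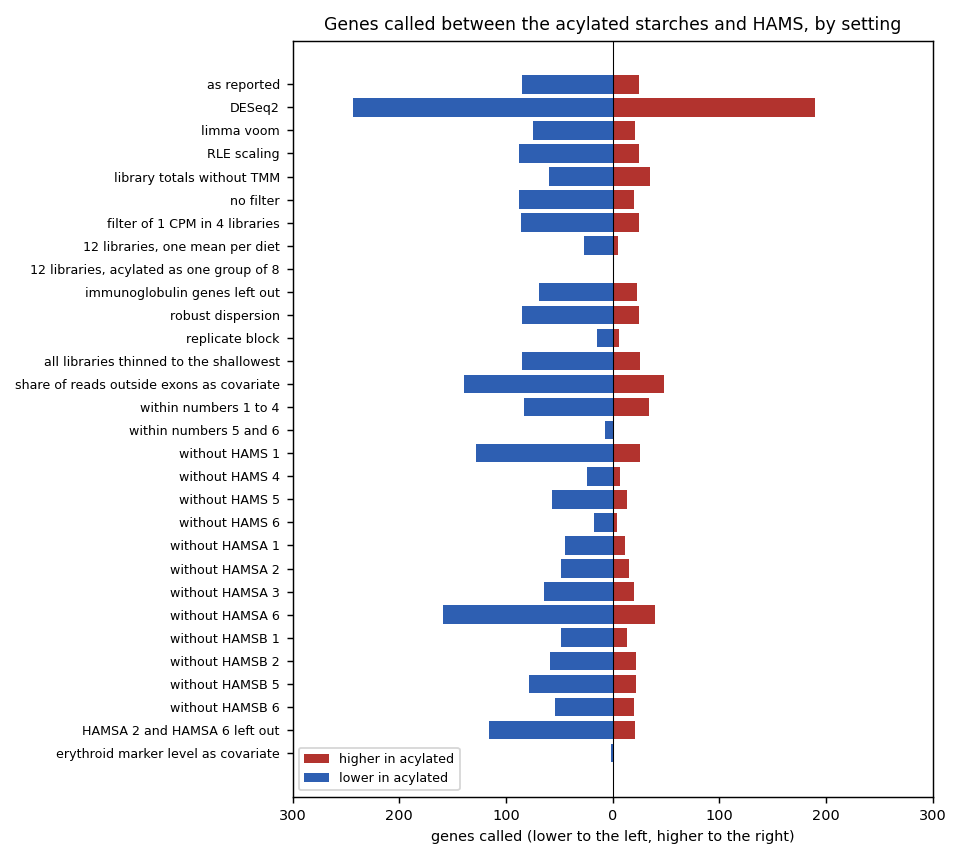
Genes called higher and lower with the acylated starches than with HAMS (bars, number of genes) under each setting of the analysis and with each library left out. With a single library left out, the count of 110 genes ranges from 21 without HAMS 6 to 199 without HAMSA 6. Over the settings it ranges more widely, from 0 to 433. The count of 0 came from 12 libraries with the acylated libraries as a single group, and 433 from DESeq2.

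The libraries also differed in RNA of other cells. The 10 B cell markers, Ms4a1 and Cd79a among them, gave none called and a median difference of -0.00, and their summed level was 12907 to 15887 CPM (counts scaled to library size) in HAMS and 13612 to 16871 in the acylated libraries. RNA of red cell precursors did not follow this: 19 of 20 erythroid markers could be tested, all 19 were positive with a median of 3.72, and their sum was 125.9 to 209.4 CPM in HAMS and 111.5 to 6836 CPM in the acylated libraries. HAMSA 2 with 6836 CPM and HAMSA 6 with 6466 CPM were the highest, while HAMSB 6 with 111.5 CPM and HAMSB 5 with 128 CPM were as low as HAMS.

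Of the T cell markers 17 of 17 were positive (median 1.36, sum 87.9 to 234 CPM in HAMS and 131 to 450.0 CPM with the acylated starches), of the NK cell markers 12 of 12 (median 1.69, 16.2 to 29.8 against 18.8 to 87.3 CPM) and of the neutrophil markers 14 of 14 (median 1.77, 9.17 to 129 against 55.7 to 377 CPM). Macrophage and monocyte markers had 16 of 18 positive (median 0.49, 146 to 287 against 169.7 to 475 CPM) and dendritic cell markers 11 of 12 (median 0.50, 187 to 257 against 234 to 322 CPM). Platelet markers went the other way, with 15 of 15 negative, a median of -0.75, and sums of 412 to 846 CPM in HAMS against 253 to 612 CPM.

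By edgeR no marker of these lists was called except Slamf7 of the 9 plasma cell markers (median 0.14); at an unadjusted p under 0.05 there were 18 erythroid, 10 neutrophil, 9 T cell, 9 NK cell and 9 platelet markers, and in these lists DESeq2 called 15, 3, 0, 2 and 0 and limma voom 0. No marker was at 0 in all libraries. The part of these cells in the results below was not tested. With the mean level of the erythroid markers as a covariate, an alternative added after the data were seen, only Plaur was called (lower); with HAMSA 2 and HAMSA 6 both left out, 137 genes were called. Fewer cells of a type and less RNA per cell cannot be told apart in bulk libraries. Depth was 15053965 to 30723337 counts in HAMSA libraries and 31707731 counts or more elsewhere, up to 46206200.

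**Figure D2:**
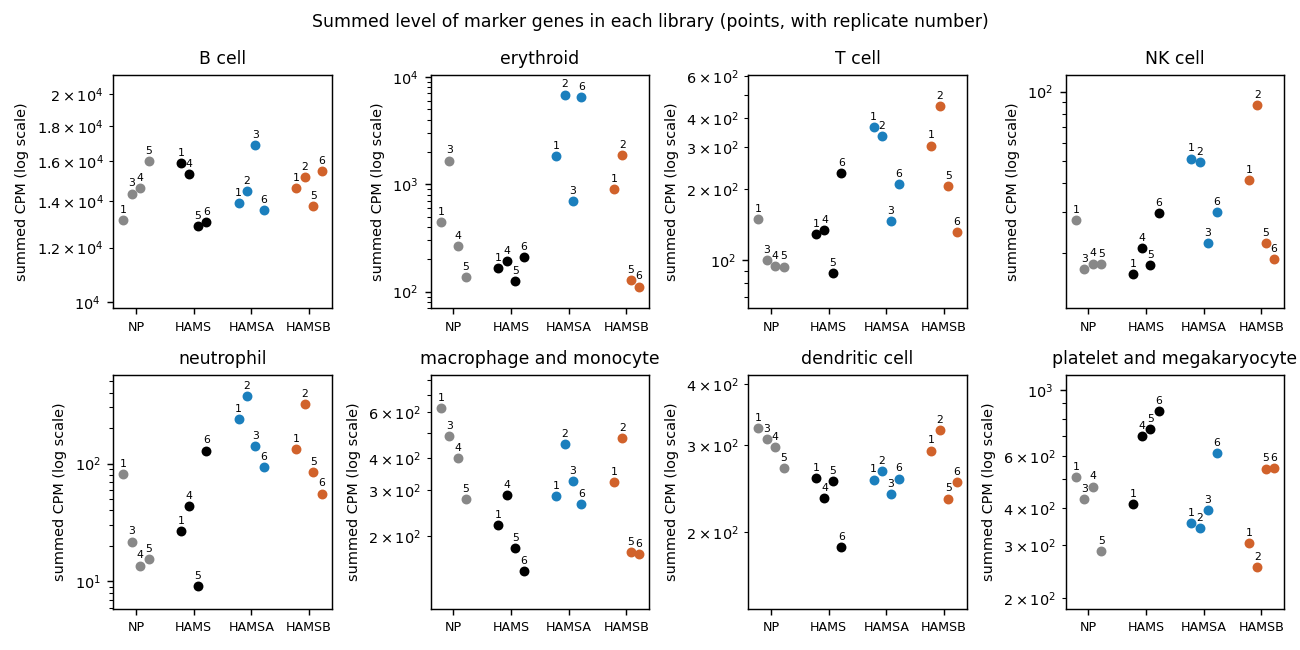
Summed level of each cell type marker list (CPM, log axis) in every library by diet. Erythroid markers reach 6836 CPM in HAMSA 2 and 6466 CPM in HAMSA 6 against at most 209.4 CPM in HAMS. Platelet markers have their highest median in HAMS (719 CPM), although HAMS 1 with 412 CPM lies below HAMSA 6 with 612 CPM and HAMSB 6 with 547 CPM.

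Among genes of the cAMP response, 5 of 23 tested were lower and none higher, with a median of -0.23. Over all genes tested 0.566% were lower and 0.166% higher, the shares to set beside this and the later list counts. Sik1 (chr17:31844250-31855804, minus strand, GRCm38) encodes a salt-inducible kinase that CREB induces and that in turn keeps CREB's coactivators out of the nucleus. Its level was 280.5, 330, 347 and 421 CPM in HAMS 1, 4, 5 and 6, then 123, 74.1, 121 and 283 CPM in HAMSA 1, 2, 3 and 6, and 52.5, 53.1, 54.6 and 52.1 CPM in HAMSB 1, 2, 5 and 6. The HAMSB libraries were nearly equal and far below HAMS, the HAMSA libraries lay between, and HAMSA 6 just reached into the HAMS range. Sik1 fell by 1.95 ± 0.24 on the log2 scale (SE; adjusted p = 0.00206, edgeR's quasi-likelihood test). It stood 1.50 higher in HAMSA than in HAMSB (95% interval 0.87 to 2.13, adjusted p = 0.0273).

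Crem encodes a CREB family factor whose ICER forms are induced by cAMP and repress the same promoters. It was measured at 25.8, 71.6, 67.8 and 86.7 CPM in the HAMS libraries, 17.6, 16.3, 14.8 and 33.9 CPM in HAMSA and 12.5, 13.4, 17.5 and 15.3 CPM in HAMSB. HAMS 1 was the lowest of its diet, and HAMSA 6 alone lay above it. Crem fell by 1.86 ± 0.25 (adjusted p = 0.00326), and HAMSA and HAMSB did not differ beyond their spread (difference 0.49, 95% interval -0.16 to 1.15, adjusted p = 0.358).

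The orphan nuclear receptors Nr4a1 and Nr4a3, which antigen receptor and cAMP signals induce in lymphocytes, were lower too. Nr4a1 (chr15:101254269-101274795, plus strand) had 69.4, 112, 73.4 and 111 CPM in HAMS, 47.7, 39.8, 36.6 and 64.7 CPM in HAMSA and 32.3, 35.7, 43.1 and 39.3 CPM in HAMSB, with no overlap between HAMS and the 8 acylated libraries. It fell by 1.12 ± 0.15 (adjusted p = 0.00326), and HAMSA stood 0.33 above HAMSB with an interval of -0.06 to 0.72. Nr4a3 had 7.95, 16.6, 16.6 and 15.9 CPM in HAMS, 7.10, 5.37, 3.13 and 11.1 CPM in HAMSA and 3.89, 4.36, 5.13 and 4.77 CPM in HAMSB, and fell by 1.37 ± 0.25 (adjusted p = 0.0161). HAMS 1 and HAMSA 6 made the overlap between diets in Nr4a3, whose call was lost without HAMS 4, HAMS 5 or HAMS 6 (adjusted p up to 0.0905).

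Cebpb, a basic leucine zipper factor of inflammatory and metabolic genes, behaved differently in the 2 acylated diets. It had 13.2, 26.4, 45.3 and 47.4 CPM in HAMS, 19.7, 27.4, 21.4 and 34.4 CPM in HAMSA and 4.35, 4.66, 3.23 and 5.03 CPM in HAMSB. All HAMSA libraries lay inside the HAMS range and all HAMSB libraries below it. The mean of the acylated diets against HAMS was -1.65 ± 0.31 (adjusted p = 0.0175), made up of -0.37 ± 0.37 in HAMSA and -2.93 ± 0.40 in HAMSB, and HAMSA exceeded HAMSB by 2.57 (interval 1.73 to 3.40, adjusted p = 0.0111). Without HAMS 4, HAMS 5 or HAMS 6 the contrast with HAMS was not called (adjusted p up to 0.0993). Members of the list that were not called included Per1 (-0.69, adjusted p = 0.0827), Creb1 (-0.24), Sik2 (-0.12) and Sik3 (0.20).

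Promoter sequence of these genes is shown because 5 genes of the cAMP list were lower and CREB binds the palindrome TGACGTCA or its core TGACG. Windows come from RefSeq (GRCm38.p6), and both strands were searched in the 250 bases before each start. In the lines below, capitals mark TGACG on the printed strand or, as CGTCA, on the opposite one. The windows are Cebpb at chr2:167688765-167688914, Nr4a1 at chr15:101266696-101266845 and Nr4a3 at chr4:48045146-48045175, all on the plus strand. Each precedes a RefSeq start site, but the Nr4a1 window lies within the GENCODE gene. The Nr4a3 window lies mostly within its own gene, and the longer window it was cut from overlaps an annotated exon.
Cebpb: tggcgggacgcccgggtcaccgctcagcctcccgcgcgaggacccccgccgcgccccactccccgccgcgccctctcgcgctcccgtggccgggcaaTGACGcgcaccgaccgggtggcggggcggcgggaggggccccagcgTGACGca
Nr4a1: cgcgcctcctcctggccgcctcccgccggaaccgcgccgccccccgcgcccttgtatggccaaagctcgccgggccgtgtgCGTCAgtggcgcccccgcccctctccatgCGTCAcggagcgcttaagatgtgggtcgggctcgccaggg
Nr4a3: ctgtggcataaaTGACGtgccgagagagcg
The core was present in 26 of 57 genes called lower that had a promoter in the table (45.6%), in 6 of 23 called higher (26.1%) and in 30.2% of 9831 tested genes matched. The palindrome, which overlaps the core, was present in 3 of the 57 (5.26%; Dusp1, Ywhah and Tra2a), in 0 of the 23 and in 3.01% of tested genes. The AP-1 site TGANTCA was found in 3.51% of the genes called lower and 5.48% of tested genes, and the CArG box in 1.75% and 1.39%. These are letter matches, not measured binding sites.

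**Figure D3:**
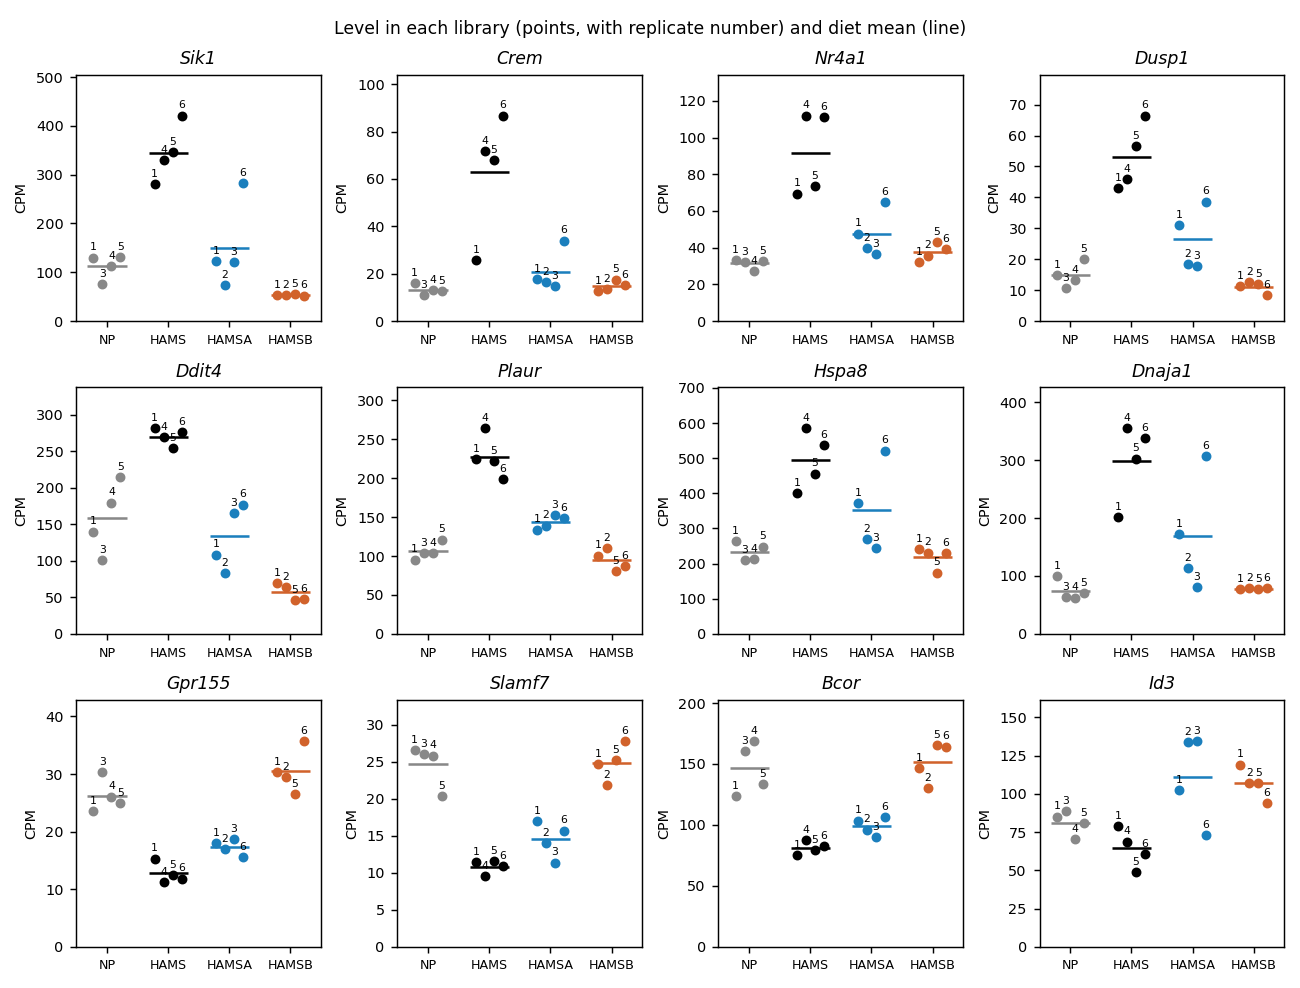
Level of 12 genes (CPM) in every library, grouped by diet, with the replicate number at each point and the diet mean as a line. In Ddit4, Dusp1, Nr4a1 and Plaur all 8 acylated libraries lie below all 4 HAMS libraries, and in Gpr155 and Bcor all 8 lie above.

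Of 31 immediate early genes tested, 7 were lower and none higher, and the median was -0.06. It was 0.03 for HAMSA against HAMS and -0.40 for HAMSB against HAMS, 2 comparisons that share the HAMS libraries. Nr4a1 and Nr4a3 are counted both here and in the cAMP list, so these list counts are not independent. Dusp1, a phosphatase that switches off p38 and JNK, had 43.1, 45.9, 56.6 and 66.5 CPM in HAMS, 31.0, 18.4, 17.8 and 38.7 CPM in HAMSA and 11.2, 12.5, 11.95 and 8.44 CPM in HAMSB. The 3 diets did not overlap. Dusp1 (chr17:26505590-26562128, minus strand) fell by 1.63 ± 0.20 (adjusted p = 0.00206), with HAMSA 1.26 above HAMSB (adjusted p = 0.0273).

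Dusp5, which inactivates ERK in the nucleus, had 22.3, 25.4, 23.9 and 30.7 CPM in HAMS, 10.4, 10.3, 8.19 and 17.8 CPM in HAMSA and 9.59, 10.9, 6.57 and 8.31 CPM in HAMSB, and fell by 1.33 ± 0.19 (adjusted p = 0.00367). The acylated diets overlapped each other and not HAMS. Dusp2 was called at -0.43, although HAMSA was within -0.12 ± 0.10 of HAMS and HAMSB at -0.74 ± 0.10, and its call was lost without HAMS 1, 4 or 6, HAMSA 1 or 2, or HAMSB 1 or 6 (adjusted p up to 0.11). Of 19 Dusp genes tested, grouped after their values were seen, Dusp1, Dusp2, Dusp5 and Dusp7 were lower and the median was -0.22.

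Cd69, an early activation antigen that holds lymphocytes in tissue, had 75.3, 66.3, 68.4 and 94.8 CPM in HAMS, 48.9, 35.0, 41.1 and 53.8 CPM in HAMSA and 36.9, 44.8, 43.5 and 33.0 CPM in HAMSB. All 8 acylated libraries were below HAMS and the acylated diets were mixed among each other. Cd69 fell by 0.86 ± 0.14 (adjusted p = 0.00759), and HAMSA and HAMSB differed by 0.18 (interval -0.17 to 0.52). Ier2, a growth factor-induced nuclear protein, fell by 0.62 ± 0.10 (adjusted p = 0.00759) with 55.8 to 119 CPM in the acylated libraries against 115 to 157 CPM in HAMS. Most of this fall was in HAMSB, at -0.98 ± 0.12 against HAMS, with HAMSA at -0.26 ± 0.12. HAMSA exceeded HAMSB in Ier2 by 0.73 (interval 0.48 to 0.98, adjusted p = 0.0149, edgeR's quasi-likelihood test). Without HAMS 6 neither Cd69 nor Ier2 was called against HAMS (adjusted p = 0.0555 for Cd69 and 0.0571 for Ier2).

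The classical immediate early transcription factors were not called. Fos gave 0.78 ± 0.60, Egr1 0.11 ± 0.17, Jun -0.04 ± 0.26 and Myc -0.09 ± 0.12, and Fos ranged widely in HAMSA (13.9 ± 16 CPM, SD, n = 4) beside 4.21 ± 1.9 CPM in HAMS.

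Of 17 glucocorticoid-responsive genes 5 were lower and none higher (median -0.18), and of 18 mTORC1 brakes and quiescence factors 2 were lower and none higher (median -0.21). Ddit4 and Tsc22d3, the 2 lower genes of the second list, also belong to the first, so these list counts are not independent. Ddit4, which restrains mTORC1 under stress, had 281, 269, 254 and 276 CPM in HAMS, 108, 83.4, 166 and 177 CPM in HAMSA and 69.6, 64.0, 46.0 and 48.0 CPM in HAMSB. The HAMS libraries agreed closely and the 3 diets did not overlap. Ddit4 (chr10:59949669-59951834, minus strand) fell by 1.63 ± 0.20 (adjusted p = 0.00206), with HAMSA at -1.02 ± 0.24 and HAMSB at -2.25 ± 0.25 against HAMS and a difference of 1.23 between them (adjusted p = 0.0268).

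Tsc22d3, the glucocorticoid-induced leucine zipper, had 760.1, 795, 688 and 887 CPM in HAMS, 341, 243, 479 and 638 CPM in HAMSA and 216, 220.0, 185 and 155 CPM in HAMSB. HAMSA 6 was nearest to HAMS but below its lowest library. Tsc22d3 (chrX:140539528-140600659, minus strand) fell by 1.45 ± 0.21 (adjusted p = 0.00367). Cxcr4, the receptor that draws B cells to Cxcl12, had 788, 877, 754 and 978 CPM in HAMS, 328, 256, 484 and 762 CPM in HAMSA and 289, 266, 223 and 254 CPM in HAMSB, and fell by 1.31 ± 0.23 (adjusted p = 0.0129). Its only overlap with HAMS came from HAMSA 6, and its call was lost without HAMS 4 or HAMS 6 (adjusted p up to 0.0734). Fkbp5 (0.18 ± 0.30) and Sgk1 (0.08 ± 0.17), both induced by glucocorticoids in many cells, were not called.

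Heat shock proteins and co-chaperones were the list with the lowest median of the 30 programs, -0.83: 6 of 23 tested were lower, none higher, and all 23 had a negative sign. The medians were -0.49 for HAMSA against HAMS and -1.17 for HAMSB against HAMS, with HAMS shared. The lower genes were Dnaja1, Hspd1, Hspa8, Cacybp, Stip1 and Ahsa1.

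Dnaja1 (chr4:40722150-40737149, plus strand), an HSP40 partner of HSP70, had 202, 355, 303 and 337 CPM in HAMS, 173, 113, 80.6 and 307 CPM in HAMSA and 77.7, 79.6, 77.5 and 78.4 CPM in HAMSB. HAMSA 6 lay among the HAMS libraries and the HAMSB libraries were almost identical. Dnaja1 fell by 1.38 ± 0.25 (adjusted p = 0.0161), with a HAMSA minus HAMSB difference of 1.10 that was not called (interval 0.46 to 1.75, adjusted p = 0.106).

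Hspa8, the constitutive HSP70, had 401, 585, 456 and 536 CPM in HAMS, 371, 269.7, 244 and 522 CPM in HAMSA and 241, 231, 174 and 230.0 CPM in HAMSB, and fell by 0.83 ± 0.17 (adjusted p = 0.0308). Hspd1 (chr1:55077835-55088243, minus strand), the mitochondrial HSP60, had 209, 363, 252 and 272 CPM in HAMS, 189.7, 185, 157 and 283 CPM in HAMSA and 137, 139, 95.7 and 119.6 CPM in HAMSB, and fell by 0.79 ± 0.16 (adjusted p = 0.026). In both genes all HAMSB libraries were below HAMS and HAMSA 6 was above the lowest HAMS library. Cacybp (-0.97 ± 0.19, adjusted p = 0.0248) and the HSP90 co-chaperones Stip1 (-0.94 ± 0.21, 0.0468) and Ahsa1 (-0.68 ± 0.15, 0.0478) made up the rest.

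The stress-inducible members varied more between libraries and were not called. Hspa1b gave -2.81 ± 0.65 (adjusted p = 0.066), with 15.6 ± 12 CPM in HAMS, 8.34 ± 11 CPM in HAMSA and 0.591 ± 0.18 CPM in HAMSB (SD, n = 4 each). Hsph1 gave -1.40 ± 0.33 and Hsp90aa1 -1.05 ± 0.27, Chordc1 just missed the threshold (adjusted p = 0.0504), and Hsf1, the factor that drives this program, gave -0.01 ± 0.09. Hspa1b shares near-identical sequence with Hspa1a, so its reads may be split or lost. The calls of this list changed with single libraries: without HAMS 4 the adjusted p was 0.0905 for Dnaja1, 0.143 for Hspa8, 0.142 for Hspd1, 0.131 for Cacybp, 0.213 for Stip1 and 0.229 for Ahsa1; all 6 also lost their call without HAMS 6. None of the 6 was called when the NP libraries were left out of the fit.

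Stretches of 30 bases before a RefSeq start site of Dnaja1 and of Hspd1 are shown because they hold heat shock element letters, GAANNTTC or TTCNNGAA, in capitals (RefSeq, GRCm38.p6). The Dnaja1 window is chr4:40722333-40722362 on the plus strand and the Hspd1 window, with 3 overlapping matches, is chr1:55088053-55088082 on the minus strand. Both windows lie within the GENCODE gene, and the longer windows they were cut from overlap an annotated exon.
Dnaja1: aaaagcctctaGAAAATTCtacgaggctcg
Hspd1: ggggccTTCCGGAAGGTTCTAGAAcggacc
Either form was present in 8 of 57 genes called lower (14.04%), 4 of 23 called higher (17.4%) and 12.3% of tested genes.

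Endoplasmic reticulum and integrated stress response genes gave 1 lower of 26 tested, Herpud1 (-0.37, a component of protein degradation at that membrane), and a median of -0.17. Herpud1 had 277, 268, 223 and 236 CPM in HAMS and 212, 211, 237 and 255 CPM in HAMSA. The HAMSB libraries had 176, 166, 161 and 160 CPM. HAMSA 3 and HAMSA 6 lay inside the HAMS range, and all HAMSB libraries lay below it. The call of Herpud1 was kept in 2 of 12 fits without 1 library. Atf4 (-0.16 ± 0.12) and Ddit3 (-0.43 ± 0.10, adjusted p = 0.0527) were not called.

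Costimulatory and activation antigens gave 4 lower of 18 tested and none higher (median -0.14). Plaur (chr7:24462484-24475968, plus strand), the urokinase receptor, had the lowest adjusted p of all genes. It had 224, 264, 222 and 199 CPM in HAMS, 134, 139, 153 and 148 CPM in HAMSA and 101, 111, 80.4 and 86.7 CPM in HAMSB, so that the 3 diets did not overlap. Plaur fell by 0.96 ± 0.09 (adjusted p = 0.000338), with -0.66 ± 0.11 in HAMSA and -1.26 ± 0.11 in HAMSB, and HAMSA exceeded HAMSB by 0.60 (interval 0.36 to 0.84, adjusted p = 0.0227). It was called in 16 of 17 other settings and whichever single HAMS, HAMSA or HAMSB library was left out.

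Besides Cd69, the list held Cd83, which stabilises MHC class II and CD86 at the surface, and Tnfrsf13c, the BAFF receptor that carries survival signals. Cd83 had 334, 526, 336 and 538 CPM in HAMS, 253, 263, 267 and 369.5 CPM in HAMSA and 253, 209.9, 264 and 261 CPM in HAMSB, and fell by 0.70 ± 0.15 (adjusted p = 0.0346). Tnfrsf13c had 519, 731, 568 and 712 CPM in HAMS, 420.2, 352, 339.8 and 614 CPM in HAMSA and 354, 348, 373 and 393 CPM in HAMSB, and fell by 0.67 ± 0.14 (adjusted p = 0.0355). In both, HAMSA 6 alone overlapped HAMS. The call was kept in 4 of 12 fits without 1 library for Cd83 and in 2 of 12 for Tnfrsf13c, with adjusted p up to 0.168 and 0.158, each without HAMS 6. Cd86 (-0.29 ± 0.14) and Cd80 (-0.17 ± 0.21) were not called.

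Il10ra, the ligand-binding chain of the IL-10 receptor, had 598, 683, 518 and 568 CPM in HAMS, 368, 311, 385 and 515 CPM in HAMSA and 292, 301, 291 and 283 CPM in HAMSB. All 8 acylated libraries were below HAMS, HAMSA 6 by little. Il10ra fell by 0.80 ± 0.11 (adjusted p = 0.00326), and HAMSA stood 0.44 above HAMSB (interval 0.16 to 0.71, adjusted p = 0.13). Gadd45a, a DNA damage and stress response gene, had 23.97, 26.9, 24.9 and 21.97 CPM in HAMS, 16.9, 17.97, 19.6 and 19.9 CPM in HAMSA and 12.97, 15.4, 12.3 and 13.4 CPM in HAMSB. The 3 diets did not overlap in Gadd45a, which fell by 0.63 ± 0.09 (adjusted p = 0.00326). Trim25 (-0.82), Ankrd37 (-0.70 ± 0.12) and the actin-binding Tpm4 (-0.58 ± 0.10) were also lower in all 8 libraries. None of these 3 was called without HAMS 6, nor Ankrd37 and Tpm4 without HAMS 4 (adjusted p up to 0.0913 over both omissions).

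Single called members of other lists were Bcl3 among 20 NF-kappaB genes (-0.60; list median -0.10), the death gene Bcl2l11 among 15 of the Bcl2 family (-0.75; 0.01) and the glucose carrier Slc2a1 among 18 glycolysis genes (-0.51; -0.04). Leaving out 1 library kept these calls in 7, 3 and 2 of 12 fits. Of 26 genes of cholesterol synthesis and uptake, 1 was lower, 1 higher and the median was -0.15. Sc5d, an enzyme late in cholesterol synthesis, had 20.2, 22.4, 27.2 and 29.9 CPM in HAMS, 14.1, 13.7, 12.9 and 20.3 CPM in HAMSA and 13.3, 13.4, 11.8 and 11.6 CPM in HAMSB, with HAMSA 6 just above HAMS 1. Sc5d fell by 0.85 ± 0.13 (adjusted p = 0.00477), and HAMSA and HAMSB differed by 0.28 (interval -0.04 to 0.60).

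**Figure D4:**
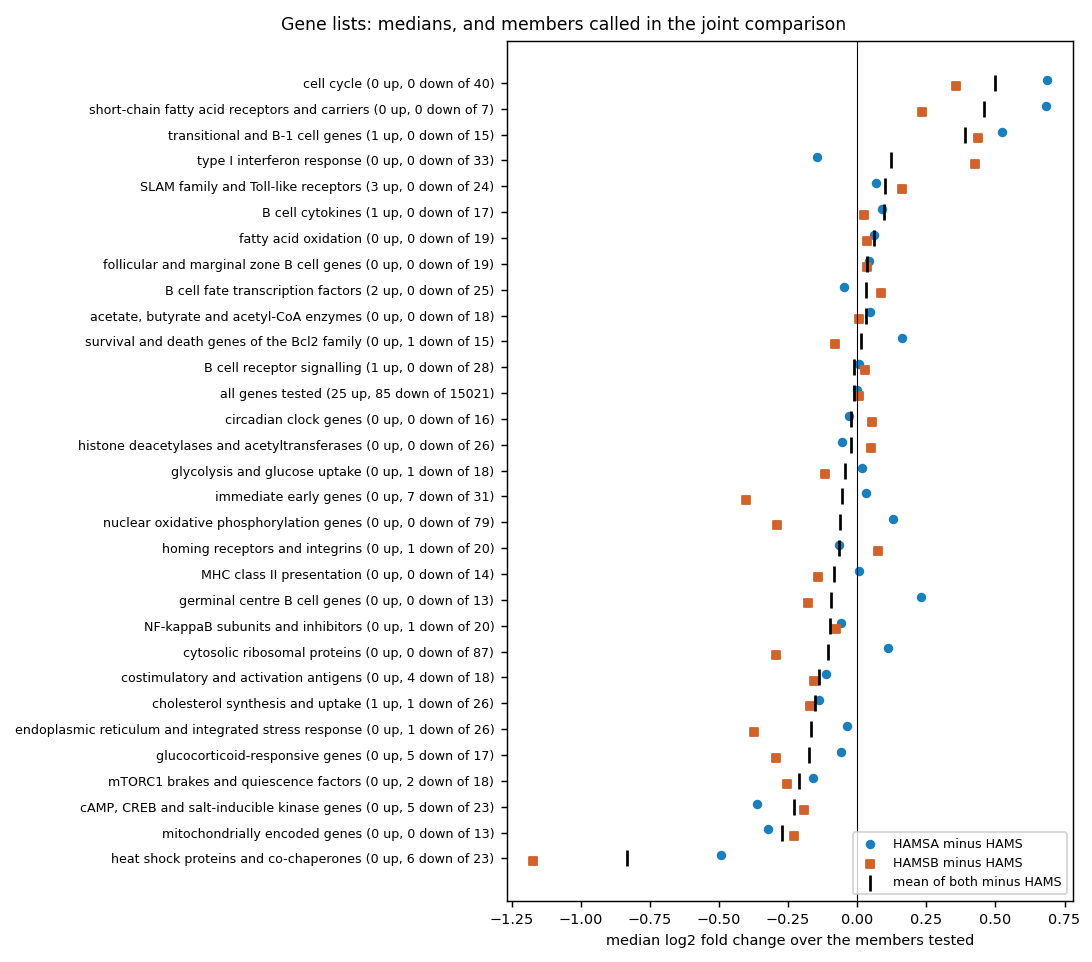
Median log2 fold change of each gene list for the mean of the acylated starches and for each acylated starch against HAMS, with the members called and tested in the labels. Heat shock proteins have the lowest median, -0.83, and 6 of 23 members called lower.

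Genes higher with the acylated starches were fewer and changed less. Gpr155 (chr2:73341506-73386572, minus strand), which senses lysosomal cholesterol for mTORC1, had 15.3, 11.3, 12.5 and 11.8 CPM in HAMS, 18.03, 16.9, 18.6 and 15.6 CPM in HAMSA and 30.3, 29.4, 26.5 and 35.7 CPM in HAMSB. All 8 acylated libraries were above HAMS, and every HAMSB library was above every HAMSA library. Gpr155 rose by 0.85 ± 0.11 (adjusted p = 0.00221), by 0.44 ± 0.12 in HAMSA and 1.26 ± 0.12 in HAMSB, and HAMSA minus HAMSB was -0.82 (interval -1.07 to -0.56, adjusted p = 0.00912).

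Of 24 SLAM family and Toll-like receptor genes, 3 were higher and none lower (median 0.10). Slamf7, a SLAM receptor also high on plasma cells, had 11.4, 9.51, 11.6 and 10.9 CPM in HAMS, 16.97, 13.98, 11.4 and 15.7 CPM in HAMSA and 24.7, 21.9, 25.3 and 27.8 CPM in HAMSB, and rose by 0.81 ± 0.12 (adjusted p = 0.00367). Slamf1, a self-ligand receptor of lymphocytes, had 20.04, 21.5, 17.4 and 23.7 CPM in HAMS, 26.9, 22.996, 26.0 and 25.6 CPM in HAMSA and 37.2, 34.3, 43.5 and 45.2 CPM in HAMSB, and rose by 0.63 ± 0.11 (adjusted p = 0.0117). In both, the HAMSB libraries stood clear of HAMS and 1 HAMSA library fell within the HAMS range. Cd180, a Toll-like receptor homologue that modulates lipopolysaccharide responses, had 143, 149, 172 and 114 CPM in HAMS, 213, 207, 150.1 and 179 CPM in HAMSA and 324, 298, 228 and 303 CPM in HAMSB, and rose by 0.68 ± 0.12 (adjusted p = 0.0159). HAMSA 3 overlapped HAMS in Cd180. Without HAMS 4 the adjusted p was 0.0553 for Slamf1, and Cd180 was not called without HAMS 4 or HAMS 6 (adjusted p up to 0.0807). The HAMSA minus HAMSB difference was called in all 3 genes, at -0.78, -0.66 and -0.62.

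Of 25 B cell fate transcription factors, Bcor and Id3 were higher and none lower (median 0.03). Bcor, a corepressor that works with Bcl6, had 75.0, 87.3, 79.3 and 82.8 CPM in HAMS, 103, 96.2, 89.9 and 107 CPM in HAMSA and 147, 129.9, 166 and 164 CPM in HAMSB. The 3 diets did not overlap, and Bcor rose by 0.60 ± 0.10 (adjusted p = 0.00862; 0.0516 without HAMS 6). Bcl6 itself gave 0.60 ± 0.14 with an adjusted p of 0.0721.

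Id3, which blocks E proteins, had 79.1, 68.7, 48.8 and 60.7 CPM in HAMS, 102, 134, 134 and 72.8 CPM in HAMSA and 119, 107, 107 and 93.9 CPM in HAMSB, and rose by 0.76 ± 0.16 (adjusted p = 0.0334). HAMSA 6 alone of the acylated libraries lay inside the HAMS range of Id3, and HAMSA and HAMSB differed by 0.05 (interval -0.32 to 0.42). Swap70, a guanine nucleotide exchange factor used in B cell migration, had 379, 408, 315 and 332 CPM in HAMS, 485, 499, 666 and 438 CPM in HAMSA and 648, 619, 745 and 821 CPM in HAMSB. All 8 acylated libraries were above HAMS, and Swap70 rose by 0.76 ± 0.13 (adjusted p = 0.00923; 0.0611 without HAMS 6). The call of Id3 was kept in 4 of 12 fits without 1 library (adjusted p up to 0.137, without HAMS 6).

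Fut8, the core fucosyltransferase, had 20.8, 22.9, 26.6 and 19.2 CPM in HAMS, 27.5, 32.7, 33.2 and 30.5 CPM in HAMSA and 48.5, 36.3, 29.0 and 35.0 CPM in HAMSB, and rose by 0.60 ± 0.12 (adjusted p = 0.0325). Il12a, the p35 subunit of IL-12 and IL-35, had 10.6 to 12.2 CPM in HAMS and 12.5 to 23.9 CPM in the acylated libraries (median 16.6) and rose by 0.56 ± 0.12 (adjusted p = 0.0388). Tifa, an adaptor of NF-kappaB signalling, had 19.4 to 23.7 CPM in HAMS and 26.1 to 38.6 CPM in the acylated libraries (median 30.3) and rose by 0.52 ± 0.11 (adjusted p = 0.0341). None of the 8 acylated libraries overlapped HAMS in these 3 genes. Of the other separated genes that the naming rule gives, Coro2a rose by 0.46, Lpin1 by 0.44, Fbxo32 by 0.43, Tmem229b by 0.41, Fam3c by 0.34 and the autophagy factor Atg13 by 0.30. Gm15880, an antisense gene outside the rule because of its model name and chosen after its values were seen, had 1.37 to 1.91 CPM in HAMS and 2.14 to 6.62 CPM in the 8 acylated libraries and rose by 1.05 ± 0.20 (adjusted p = 0.0234). With 1 library left out, the call was kept in 5 of 12 fits for Fut8 and Tifa and in 4 of 12 for Il12a, with adjusted p up to 0.157, 0.143 and 0.158.

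Atg13 was among the genes in which the acylated diets stood closest: 59.6, 59.7, 52.5 and 61.5 CPM in HAMS, 73.2, 72.7, 73.7 and 68.9 CPM in HAMSA and 76.4, 66.5, 72.4 and 69.2 CPM in HAMSB, with a HAMSA minus HAMSB difference of 0.02 (interval -0.13 to 0.17). Its call was lost in 10 of the 12 fits that left out 1 library, with an adjusted p up to 0.123 without HAMS 5.

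Whether the 2 acylated starches differed was tested by HAMSA against HAMSB in the same fit of all 16 libraries. The difference does not use the HAMS level, but the gene filter, scaling and estimate of spread use all diets. This test called 117 genes (0.779%), 88 higher in HAMSA (0.586%) and 29 lower (0.193%). The libraries of these diets also differed technically. Reads outside exons made up 9.76 to 12.1% in HAMSA and 12.6 to 16.9% in HAMSB, and depth did not overlap either. With that share as a covariate edgeR called 0 genes between them, with 1084 at an unadjusted p under 0.05. The cause of this drop was not tested. Among the 110 genes called against HAMS, 19 were also called between the acylated diets. Of these, 13 were lower and 6 higher than HAMS, and in all 19 HAMSB was farther from HAMS. The other 91 were not called, which does not show that the diets matched in them. HAMSA was above HAMSB in 84 of the 85 genes called lower and below it in 23 of the 25 called higher. Against HAMS, genes called lower had a median of -0.51 in HAMSA and -0.92 in HAMSB, and genes called higher 0.36 and 0.73. Taken alone, HAMSB against HAMS called 252 genes (1.68%), 65 higher (0.433%) and 187 lower (1.24%). HAMSA against HAMS called 0 by edgeR, with 1751 genes at an unadjusted p under 0.05 and a lowest adjusted p of 0.300, 0 by limma voom and 103 by DESeq2.

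The smallest p between the acylated diets was that of Pmepa1, an inhibitor of TGF-beta signalling: 43.5, 35.2, 49.3 and 39.5 CPM in HAMS, 34.0, 37.7, 41.7 and 34.7 CPM in HAMSA and 16.5, 14.5, 13.6 and 13.8 CPM in HAMSB. HAMSA lay with HAMS and HAMSB well below both. Pmepa1 was called in the mean of the diets (-0.85 ± 0.13, adjusted p = 0.00641), with -0.18 ± 0.15 in HAMSA, -1.52 ± 0.16 in HAMSB and a difference of 1.34 (interval 1.01 to 1.68, adjusted p = 0.00388). In Pmepa1, as for example in Cebpb, Dusp2 and Noa1, the 95% interval of HAMSA against HAMS included 0. Noa1 was also called lower in the mean of the diets (-0.49 ± 0.08, adjusted p = 0.00742, edgeR's quasi-likelihood test). Of 24 TGF-beta and BMP pathway genes, grouped after their values were seen, Pmepa1, Smad7, Bambi and Tgif1 were lower, Id3 was higher and the median was -0.12. The count between the acylated diets was 13 without HAMSB 5, 18 without HAMSA 2, 19 without HAMSA 3, 27 without HAMSB 6, 35 without HAMSB 1 and 187 without HAMSA 6.

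**Figure D5:**
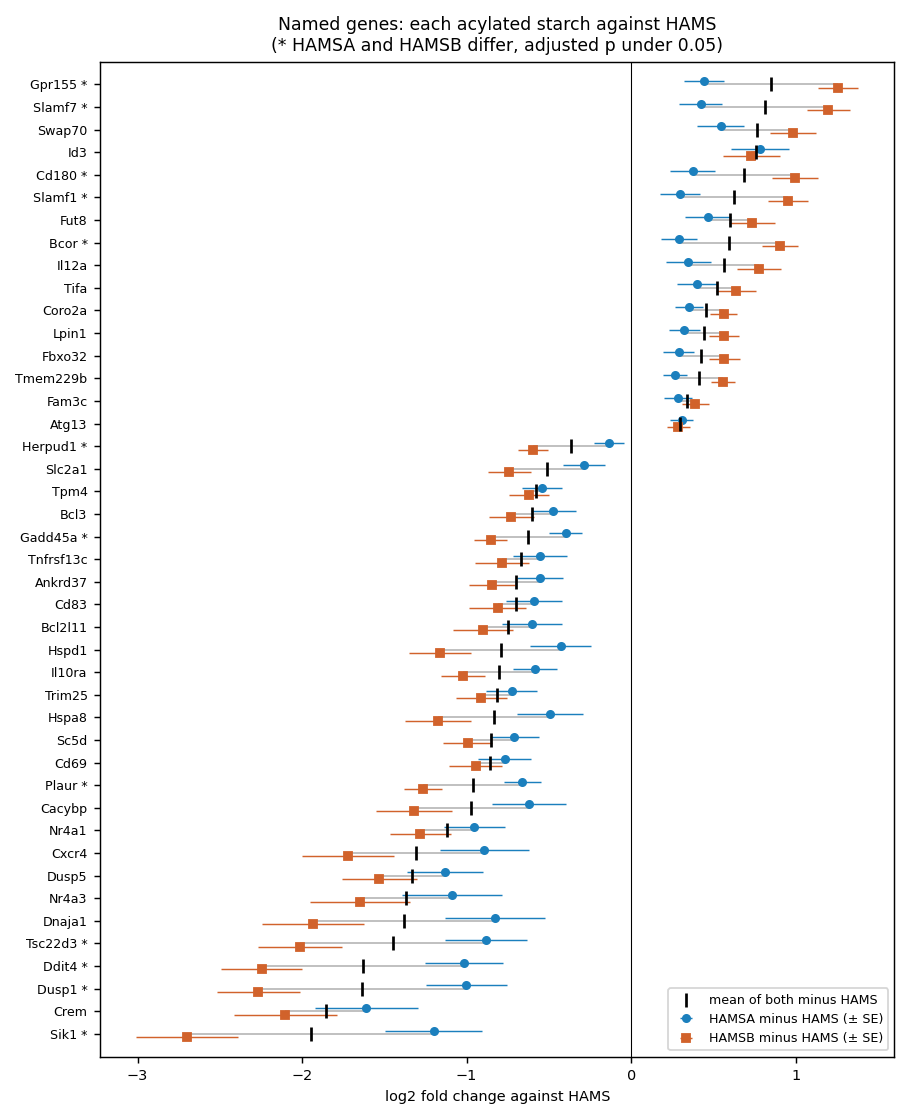
Log2 fold change against HAMS of the 43 named genes in HAMSA and in HAMSB (points, with the SE as bars) and their mean (tick). HAMSB lies farther from HAMS than HAMSA in Sik1, Ddit4, Plaur and Gpr155, and stars mark genes in which HAMSA and HAMSB differed.

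The NP libraries, left out of the contrast, give the level on the remaining diet. The genes called lower had a median of 1.003 for HAMS against NP and 0.21 for the acylated mean against NP, and the genes called higher -0.76 and -0.17; each pair shares libraries and no test was made on it. Plaur averaged 106 ± 10.9 CPM in NP (SD, n = 4), Dnaja1 74.0 ± 17.6 CPM and Sik1 112 ± 25.7 CPM. Of all genes tested, 341 were higher (2.27%) and 309 lower (2.06%) in HAMS than in NP, 650 in all (4.33%), and 5 were higher (0.0333%) and 23 lower (0.153%) in the acylated mean than in NP, 28 in all (0.186%). Of the 110, Ier2 alone was also called against NP, at 0.59 ± 0.10 (adjusted p = 0.0323).

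Genes through which acetate and butyrate are known to act showed no call. None of 7 receptors and carriers tested passed (median 0.46): Ffar2 gave 0.46 ± 0.52, with 14.6 ± 8.2 CPM in HAMS, 23.5 ± 11 CPM in HAMSA and 17.2 ± 11 CPM in HAMSB, Ffar3 0.15 ± 0.35, the monocarboxylate carrier Slc16a1 0.55 ± 0.30 and Niacr1, a butyrate and niacin receptor, 1.88 ± 0.73 (adjusted p = 0.311). None of 18 enzymes of acetate, butyrate and acetyl-CoA was called (median 0.03; Acss2 0.22 ± 0.15), nor any of 26 histone deacetylases and acetyltransferases (median -0.02; Hdac9 -0.56 ± 0.21, adjusted p = 0.287; Hdac3 0.01 ± 0.10), nor any of 19 genes of fatty acid oxidation (0.06). By edgeR without adjustment, 2, 0, 1 and 1 genes of these 4 lists had a p under 0.05; DESeq2 called 0, 0, 0 and 1, and limma voom 0 in each.

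In all, 13 of the 30 programs held no called gene by edgeR: of their 381 tested members 32 had an unadjusted p under 0.05, DESeq2 called 8 and limma voom 0. Beside the 4 lists above they were the 13 germinal centre genes (median -0.09), 19 follicular and marginal zone genes (0.04), 14 MHC class II genes (-0.08), 40 cell cycle genes (0.50, 37 of them positive), 33 interferon response genes (0.12), 16 clock genes (-0.02), 87 ribosomal protein genes (-0.11), 79 nuclear oxidative phosphorylation genes (-0.06) and 13 mitochondrially encoded genes (-0.27, all 13 negative). Of these, the interferon list had medians of -0.14 in HAMSA and 0.42 in HAMSB, the ribosomal list 0.11 and -0.30, and the oxidative phosphorylation list 0.13 and -0.29. Over all genes the SE of the contrast had a median of 0.15 (log2), so small differences in single genes were not detectable.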

How the data were processed

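The series holds 16 poly(A) libraries of splenic B cells. Alignment with STAR, counting with featureCounts of Subread and use of edgeR and limma are stated per the submitters' processing notes, while versions, genome build and annotation are not given in the sources used here. In their table the authors deposited unscaled read counts for 39179 genes, on the reverse strand, with 15053965 to 46206200 counts per library. Coordinates come from a match of 37607 genes to GENCODE M21 (GRCm38), possibly another annotation than the one counted on.

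The counts were fitted with edgeR 4.0.16 in R 4.3.3. Genes passing edgeR's filter at a minimum count of 10 were tested (15021), with TMM scaling and 1 mean per diet over all 16 libraries (12 residual degrees of freedom, biological variation 22.1%). The contrast was the mean of HAMSA and HAMSB minus HAMS, by the quasi-likelihood F-test with Benjamini-Hochberg adjustment over all genes and a threshold of 0.05. The steps were tested on simulated data. Alternatives used DESeq2 1.42.0, limma 3.58.1, other scalings, filters and covariates, fewer libraries and a replicate block.

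Genes named were, among called genes with an average log2 CPM of at least 1 and all 8 acylated libraries on one side of HAMS, the 12 largest rises and 12 largest falls (no immunoglobulin segments, clone names or pseudogenes), up to 4 called members per list with the smallest p (up to 2 uncalled where none was called), and the 6 genes with the smallest p between HAMSA and HAMSB. Other names were chosen after their values were seen. The comparison and the 39 gene lists (30 programs, 9 markers) were chosen with earlier results of these data known, and 2 identifiers in the lists (Gpr109a and Ighd) had no match.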

Additional observations from a re-analysis of the deposited data

Results flagged for a closer look

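Among 49 named genes, 196 groups of 4 libraries were examined for a library far from the other 3, and 7 were found; chance alone gives about 1 in 20 groups. HAMSA 6 was high among the HAMSA libraries in Crem (33.9 CPM against 14.8 to 17.6), Sc5d (20.3 against 12.9 to 14.1) and Cd83 (369.5 against 253 to 267). HAMS 1 was low in Nr4a3 (7.95 CPM against 15.9 to 16.6), and HAMSB 5 was low in Hspa8 (174 CPM against 230.0 to 241). In the NP diet, NP 1 was high in Hspd1 (136 CPM against 109 to 112) and NP 5 low in Slamf7 (20.4 CPM against 25.8 to 26.6).

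The difference between HAMSA and HAMSB was itself called by edgeR's quasi-likelihood test in 117 of all 15021 genes (0.779%), 18 of them among these 49. Of those 18, 6 had been named for having the smallest p in this same comparison, so their calls follow from the choice. HAMSA was the higher in Sik1 (by 1.50 on the log2 scale), Pmepa1 (1.34), Dusp1 (1.26), Ddit4 (1.23), Tsc22d3 (1.13), Plaur (0.60), Gadd45a (0.46) and Herpud1 (0.46), all lower than HAMS in the mean of both diets. HAMSA minus HAMSB was -0.82 in Gpr155, -0.78 in Slamf7, -0.66 in Slamf1, -0.62 in Cd180 and -0.61 in Bcor, all higher than HAMS in that mean. The genes with the smallest p between the acylated diets beside Pmepa1 were Bcl7c (1.16), Bloc1s4 (0.86), Rfxap (0.70), Noa1 (0.63) and Ier5 (0.60), each with an adjusted p of 0.00798. Ier5, an immediate early gene, had 391 ± 13 CPM in HAMSA, 318 ± 17 CPM in HAMS and 259 ± 16 CPM in HAMSB (SD, n = 4), so that the acylated diets lay on either side of HAMS and their mean did not change (0.00 ± 0.07).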

How the results depend on the processing

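No gene reversed, and the 43 named genes that were called against HAMS kept their sign in all settings. Against 110 genes (25 higher, 85 lower), DESeq2 called 433 (190 and 243), a fit to the 12 starch libraries 32 (5 and 27), that fit with the acylated libraries as 1 group 0 (0 and 0), a covariate for reads outside exons 187 (48 and 139), and numbers 5 and 6 alone 7 (0 and 7). With a replicate block 21 genes were called (6 and 15); same-numbered libraries correlated at a median of 0.19 and from -0.25 to 0.49, 2 libraries correlated best with their own number, and the labels do not say that numbers pair animals. Alternatives chosen after seeing the data gave 1 gene (0 and 1) with the erythroid marker level as a covariate and 137 without HAMSA 2 and HAMSA 6. Leaving out 1 library gave 21 to 199 genes, 4 to 40 higher and 17 to 159 lower. HAMSA against HAMSB, 117 genes, gave 600 by DESeq2, 18 in the 12 libraries, 2 with the replicate block, 0 by edgeR with the covariate for reads outside exons (1084 at an unadjusted p under 0.05), 2 without HAMSA 2 and HAMSA 6, 2 with the erythroid covariate, and 13 to 187 without 1 library. Of the 43 named genes, 13 were called whichever single HAMS, HAMSA or HAMSB library was left out, and none in all 17 other settings. The cause of these shifts was not tested. Thinning all libraries to 15053965 counts gave 111 genes.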
